A study of Mus musculus with 4 samples.

Results

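The 10 genes described here encode 5 Wnt ligands (Wnt2, Wnt4, Wnt5a, Wnt9b and Wnt11) and 5 secreted modulators of Wnt signaling (Sfrp1, Sfrp2, Sfrp5, Dkk1 and Rspo3). They were taken by name from the 32285 genes counted in single-cell libraries of embryonic mouse hearts. They were chosen by name, and the choice also rests on UMI counts of Sfrp2 in the same libraries, a lower level of Sfrp2 in mutant than in wild-type mesenchymal-like cells. Genotype differences are therefore given without a test for Sfrp2 in every cell group, and for all 10 genes in the groups that hold cushion and outflow mesenchyme.

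Wnt ligands are lipid-modified in the secreting cell and bind Frizzled receptors on neighboring cells. With the coreceptors Lrp5 and Lrp6 they stabilize beta-catenin, which turns on targets such as Axin2 and Lef1 through Tcf and Lef factors, whereas Wnt5a and Wnt11 act largely without beta-catenin. Sfrp proteins bind Wnt ligands outside the cell, Dkk1 blocks Lrp5 and Lrp6, and R-spondins such as Rspo3 bind Lgr receptors and keep Frizzled receptors at the cell surface. In the heart at midgestation these signals act between the inflow tract, the chambers, the endocardium, the cushions and the outflow tract.

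Hearts were dissected at E10.5 from C57BL/6J embryos, 2 libraries from wild-type embryos (Wt1 and Wt2) and 2 from embryos homozygous for the I383V variant of Cyp51, an enzyme of cholesterol synthesis (Ho1 and Ho2). The labels give CRISPR/Cas9 as the treatment of all 4 libraries, and the sources used here do not give the number of embryos or litters behind a library. P-values therefore measure the spread between these libraries, which may be partly technical. The deposited counts of unique molecular identifiers (UMIs, 1 for each captured mRNA molecule) summed to 109893733, 117034633, 127018819 and 107377100, where sets of 4 values are given in the order Wt1, Wt2, Ho1, Ho2 throughout. Once cells of low quality and likely doublets had been taken out, 8908, 7154, 6980 and 6126 cells remained, with a median of 10561, 14215, 15658 and 15831 UMIs per cell.

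Ho1 stood apart from the other libraries. It held 32234 UMIs of Xist, the RNA of the inactive X chromosome in female cells, against 5 in Wt1, 4 in Wt2 and 2 in Ho2. It also held few cells from around the heart, with 1 cell in the Epcam gate and 18 in the Crabp1 gate defined below. Blood markers were highest in Ho1 in the cardiomyocyte and Cdh5 gates, with values given below. Any pair of libraries shared between 14 and 34 barcodes, at most 0.425% of the smaller one.

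Cells were sorted into 9 gates by marker genes alone. Cells high in Tnnt2, a thin filament gene of cardiomyocytes, were split by Shox2, a factor of the sinus venosus, and by Myl2, a ventricular myosin light chain, into the Tnnt2 Shox2 gate (284, 300, 441 and 560 cells), the Tnnt2 Myl2 gate (764, 1393, 1984 and 1049) and the Tnnt2 only gate (765, 1033, 1103 and 894). The Cdh5 gate of endothelial cells held 1000, 1545, 1619 and 947 cells, and the Upk3b gate of epicardium held 140, 185, 124 and 218. The mesenchymal gates were Hapln1 (869, 967, 1157 and 636 cells), Stmn4 (176, 211, 101 and 78) and Crabp1 (2500, 461, 18 and 398). The Epcam gate of epithelium held 457, 183, 1 and 266 cells. In total 1933, 848, 331 and 1073 cells met no gate.

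The gates were checked against marker genes that had not been used to set them. All 6 endothelial and 4 endocardial markers stood at least 2 times over the mean of the other gates in the Cdh5 gate, as did all 5 cushion markers in the Hapln1 gate, 4 of 4 epicardial markers in the Upk3b gate, 5 of 5 epithelial markers in the Epcam gate and 4 of 5 pharyngeal markers in the Crabp1 gate. The Tnnt2 Myl2 gate raised 3 of 3 ventricular markers. All 4 atrial markers were raised in the Tnnt2 Shox2 gate and 3 of 4 in the Tnnt2 only gate. The Tnnt2 Shox2 gate raised only 1 of 4 sinus venosus markers and the Stmn4 gate only 2 of 4 outflow markers, so these gates are called by their gating genes. The Hapln1 gate was mixed and also raised 3 of 4 outflow, 2 of 4 endocardial, 2 of 4 neural and 1 of 6 endothelial markers. Endocardial markers summed to 227, 254, 231 and 319 CPM (defined below) in it, against 702, 793, 712 and 848 in the Cdh5 gate. The part of endocardial cells in the levels and shares of the Hapln1 gate was not tested. The Stmn4 gate was mixed and raised 2 of 4 neural, 2 of 5 pharyngeal and 2 of 5 cushion markers as well. Some lists share genes, so their counts are not independent. Sox9 and Twist1 are in the cushion and outflow lists, Tcf21 in the outflow and epicardial lists, and Tbx18 in the sinus venosus and epicardial lists.

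Promoter sequence was at hand for 7 of the 10 genes in RefSeq (GRCm38.p6). Those of Wnt5a, Sfrp1 and Rspo3 were not used here. The 250 bases before each RefSeq start were searched on both strands for 4 forms of the Tcf/Lef word. The word CTTTGAT was held by 3.21% of all 32851 windows of this kind, the word CTTTGAA by 4.46%, the word CTTTGTT by 5.03%, the word CTTTGTA by 3.20% and any of the 4 by 14.8%. Wnt11 held CTTTGAT on the opposite strand, beginning 51 bases before the start that RefSeq and GENCODE share, and Dkk1 held CTTTGAA at 117 and CTTTGTT at 98 bases before its RefSeq start. The RefSeq starts of Wnt2, Wnt4 and Dkk1 lie inside the gene as GENCODE M21 annotates it, and so do both matches of Dkk1. Wnt11 has a further RefSeq start inside the gene, and its window held none of the words. The other 5 genes held none. A match is a description of the letters only. The Wnt11 window is shown for its match, in capitals as read on the gene's strand, and the Sfrp2 window because Sfrp2 led to the choice of the 10 genes.
Wnt11, chr7:98834862-98835111, plus strand: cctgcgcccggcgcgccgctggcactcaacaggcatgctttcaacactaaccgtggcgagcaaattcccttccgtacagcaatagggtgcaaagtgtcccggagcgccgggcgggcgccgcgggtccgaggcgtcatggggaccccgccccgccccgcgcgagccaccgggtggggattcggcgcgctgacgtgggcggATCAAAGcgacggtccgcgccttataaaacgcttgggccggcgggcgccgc
Sfrp2, chr3:83766071-83766320, plus strand: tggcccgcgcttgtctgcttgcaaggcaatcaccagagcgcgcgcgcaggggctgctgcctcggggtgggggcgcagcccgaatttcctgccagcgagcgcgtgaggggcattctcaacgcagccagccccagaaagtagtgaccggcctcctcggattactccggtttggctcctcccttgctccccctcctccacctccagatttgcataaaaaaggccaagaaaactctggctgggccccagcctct

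The question of where each gene was expressed was answered first. UMIs were summed per library and gate and scaled to CPM (UMIs of the gene per 1000000 UMIs of that sum), and all sums of at least 20 cells were compared in 1 edgeR quasi-likelihood fit of each gate against the mean of the other 8, with the library as a block. Of 90 gene and gate pairs, 36 were called higher and 37 lower, against 29.4% of all gene and gate pairs called higher and 26.8% called lower. Wnt11 was called in all 9 gates (5 higher and 4 lower) and Wnt9b in 3.

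**Figure D1:**
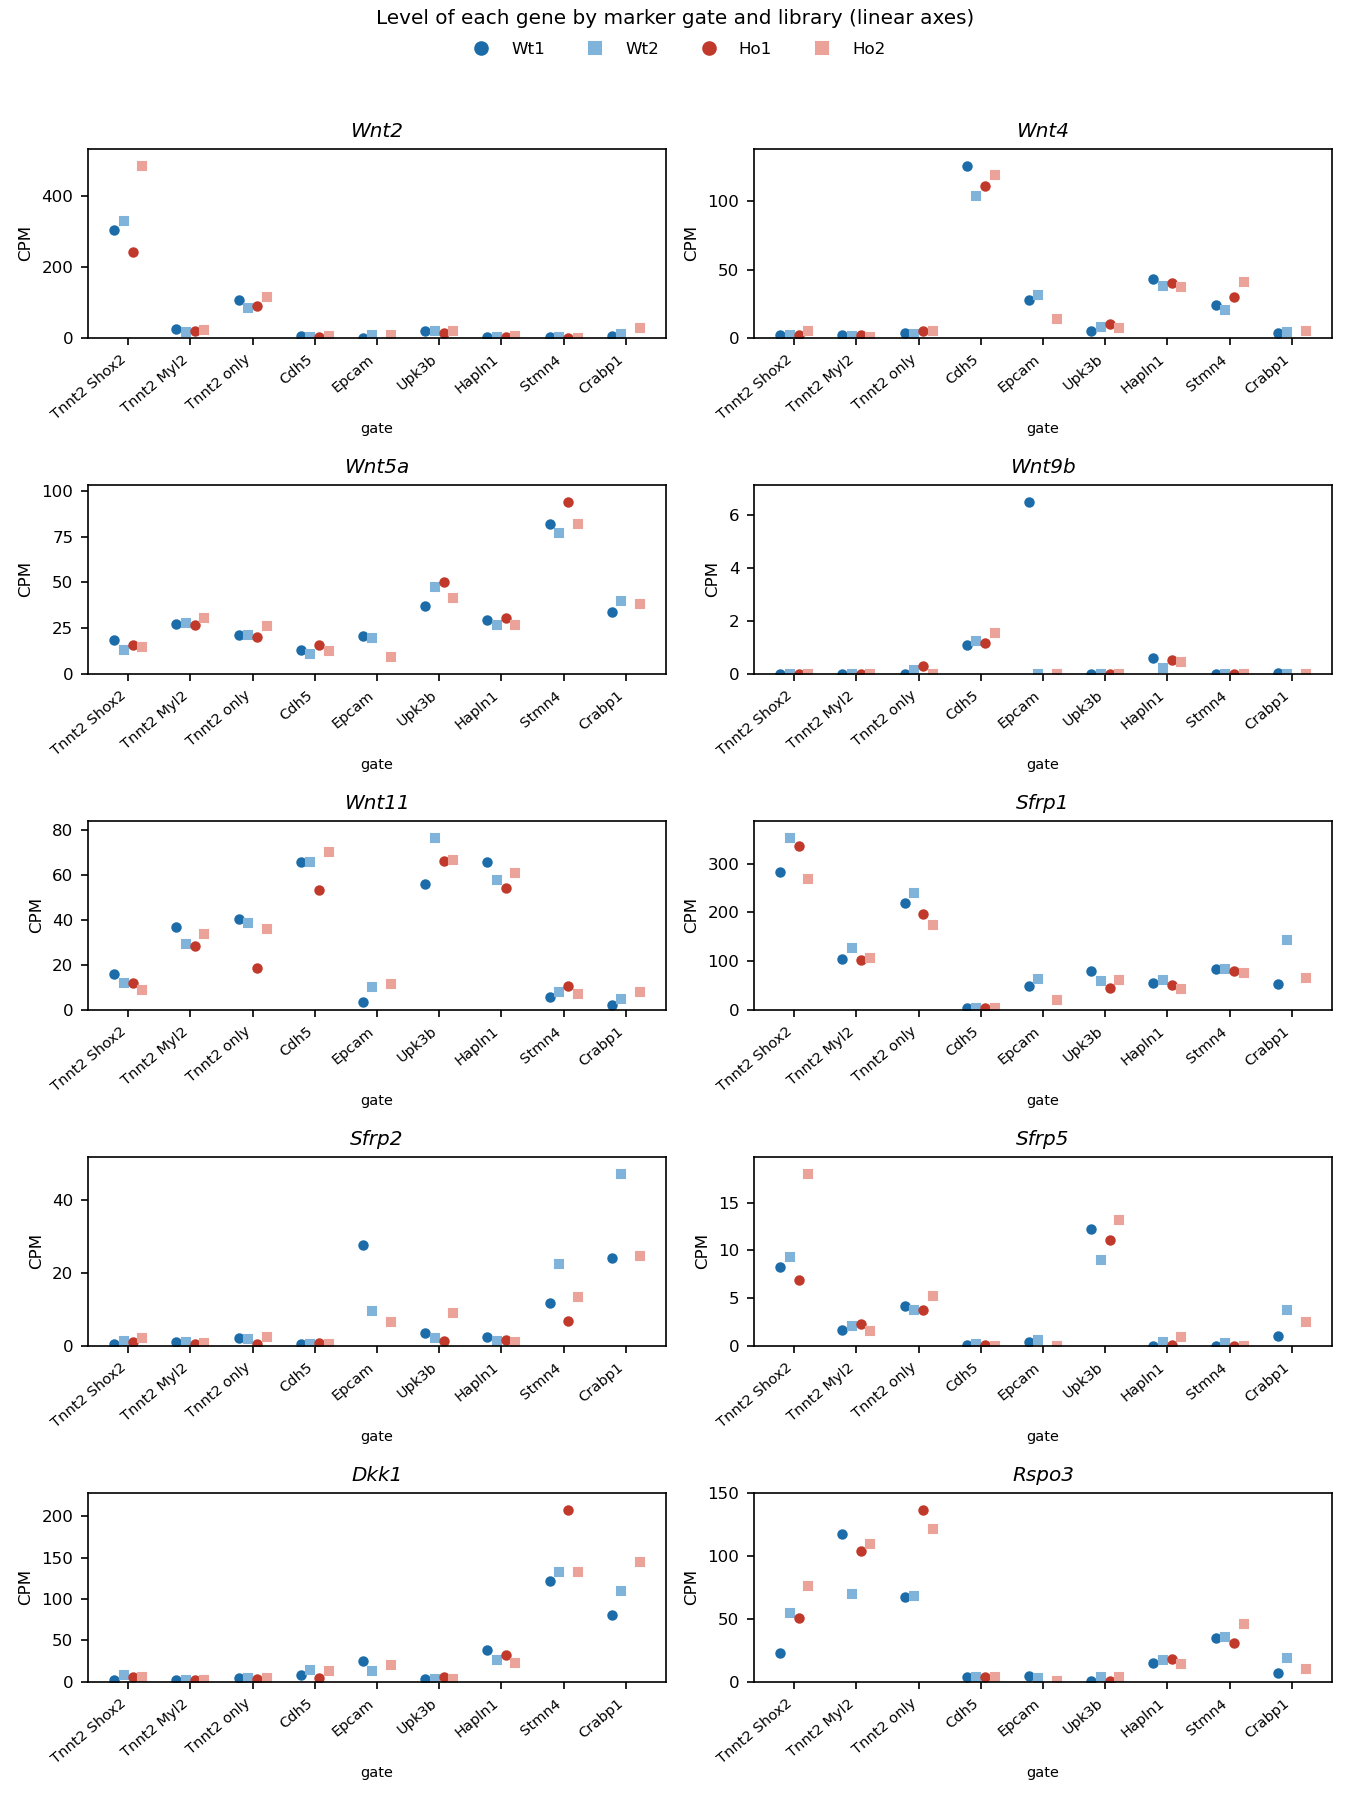
Level of the 10 genes in CPM (linear axes, scaled for each gene) by marker gate, with 1 point for each library of at least 20 cells (blue, Wt; red, Ho). Wnt2 and Sfrp1 were highest in the Tnnt2 Shox2 gate, Wnt4 in the Cdh5 gate, Wnt5a in the Stmn4 gate, Dkk1 in the Stmn4 and Crabp1 gates, which overlap, and Rspo3 in the Tnnt2 Myl2 and Tnnt2 only gates. For Rspo3 these gates overlap each other and the Tnnt2 Shox2 gate.

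Among the ligands, Wnt2 (chromosome 6, 17988940 to 18030585, minus strand, GRCm38), known for its part in the posterior pole of the heart, marked cardiomyocytes with Shox2. Its level in the Tnnt2 Shox2 gate was 305, 330.1, 243 and 485 CPM. The Tnnt2 only gate followed with 106, 83.6, 88.5 and 116 CPM, and the ranges of both gates did not overlap. The mean was 3.46 times higher in the Tnnt2 Shox2 gate, and the fitted log2 difference of that gate from the mean of the others was 5.53 ± 0.15 (SE). With each cell thinned to 5000 UMIs, and cells with fewer left out here and below, 62.2% of cells of the Tnnt2 Shox2 gate held a Wnt2 UMI (mean of 4 libraries), against 0.143% in the Stmn4 gate, where the share was lowest. Without thinning these shares were 80.1% and 0.769%.

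Wnt4 (chromosome 4, 137277489 to 137299726, plus strand) was highest in endothelial cells. The Cdh5 gate gave 126, 104, 111 and 119 CPM, above every library of the Hapln1 gate (43.3, 38.2, 40.1 and 37.6 CPM). The Hapln1 gate overlapped the Stmn4 gate (24.2, 20.1, 30.0 and 41.2 CPM), which overlapped the Epcam gate (27.5, 31.1 and 13.4 CPM in Wt1, Wt2 and Ho2), and all 3 were called higher than the mean of the others. The log2 difference of the Cdh5 gate from the other gates was 3.93 ± 0.10, and that of the Hapln1 gate was 2.08 ± 0.12. A Wnt4 UMI was found in 28.2% of cells of the Cdh5 gate at 5000 UMIs and in 48.8% without thinning, against 0.643% and 2.09% in the Tnnt2 Myl2 gate.

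Wnt5a (chromosome 14, 28504750 to 28527448, plus strand), a ligand of outflow morphogenesis, was highest in the Stmn4 gate, with 82.0, 76.7, 93.8 and 81.8 CPM. The Upk3b gate (37.2, 47.2, 50.2 and 41.5 CPM) and the Crabp1 gate overlapped each other below it. Its lowest mean was 12.9 CPM in the Cdh5 gate, a level that was not separated from free RNA in the droplets. A Wnt5a UMI was found in 30.3% of cells of the Stmn4 gate at 5000 UMIs and in 5.97% of the Cdh5 gate (64.3% and 17.8% without thinning).

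Wnt11 (chromosome 7, 98835112 to 98855195, plus strand) had no single leading gate. Its levels were 55.8, 76.3, 66.1 and 66.5 CPM in the Upk3b gate, 65.5, 65.8, 53.4 and 70.0 in the Cdh5 gate, and 65.7, 57.7, 54.2 and 60.7 in the Hapln1 gate, and these ranges overlapped. All 3 were above the Tnnt2 Myl2 and Tnnt2 only gates, in which no library exceeded 40.4 CPM. The share of cells of the Upk3b gate with a UMI was 24.2% at 5000 UMIs and 64.2% without thinning, against 2.25% and 4.39% in the Crabp1 gate.

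Wnt9b (chromosome 11, 103727364 to 103749821, minus strand), an endocardial ligand of valve development, was the sparsest of the 10. The Cdh5 gate held 16, 33, 34 and 27 UMIs, or 1.07 to 1.55 CPM. The Hapln1 gate held 6, 3, 8 and 4 UMIs. The Tnnt2 Shox2, Tnnt2 Myl2, Upk3b and Stmn4 gates held none in any library. The Epcam gate held 33 UMIs, all of them in Wt1, so its called difference rests on that library.

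Among the modulators, Sfrp1 (chromosome 8, 23411502 to 23449632, plus strand) followed the cardiomyocyte gates. The Tnnt2 Shox2 gate gave 282, 353, 337 and 268 CPM, the Tnnt2 only gate 218, 239, 196 and 174, and the Tnnt2 Myl2 gate 105, 127, 103 and 107, with no overlap between the 3 gates. The Cdh5 gate was lowest at a mean of 3.45 CPM, a log2 difference of -4.72 ± 0.17 from the other gates. At 5000 UMIs 67.7% of cells of the Tnnt2 Shox2 gate and 1.57% of the Cdh5 gate held an Sfrp1 UMI (87.6% and 4.76% without thinning).

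Sfrp5 (chromosome 19, 42197971 to 42202252, minus strand), a gene of inflow progenitors, was shared by the Upk3b gate (12.3, 9.03, 11.1 and 13.2 CPM) and the Tnnt2 Shox2 gate (8.26, 9.34, 6.88 and 18.0 CPM), which overlapped. Both were above the Tnnt2 only gate, where the highest library was at 5.22 CPM. The share of cells of the Upk3b gate with a UMI was 6.23% at 5000 UMIs and 16.3% without thinning. In the Stmn4 gate no library had a cell with a UMI at 5000 UMIs and the unthinned mean was 0.119%.

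Sfrp2 (chromosome 3, 83766321 to 83774316, plus strand) was highest in the Crabp1 gate of pharyngeal mesenchyme, with 24.2, 47.2 and 24.7 CPM in Wt1, Wt2 and Ho2. The Epcam gate (27.7, 9.60 and 6.45 CPM) overlapped it. The Hapln1 gate was far lower, with 2.48, 1.38, 1.45 and 1.08 CPM. At 5000 UMIs 14.7% of cells of the Crabp1 gate and 0.314% of the Cdh5 gate held an Sfrp2 UMI (26.3% and 0.964% without thinning).

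Dkk1 (chromosome 19, 30545863 to 30549665, minus strand), itself a target of beta-catenin, was highest in the Stmn4 gate (122, 132, 207 and 133 CPM) and the Crabp1 gate (81.3, 109.7 and 145 CPM in Wt1, Wt2 and Ho2), which overlapped. Both were above the Hapln1 gate at 38.6, 25.7, 31.9 and 23.1 CPM. The 3 cardiomyocyte gates were each called lower. A Dkk1 UMI was found in 39.1% of cells of the Stmn4 gate and in 0.904% of the Tnnt2 Myl2 gate at 5000 UMIs (63.8% and 2.22% without thinning).

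Rspo3 (chromosome 10, 29452416 to 29535867, minus strand) was highest in cardiomyocytes. The Tnnt2 Myl2 gate gave 117, 69.9, 104 and 109.8 CPM and the Tnnt2 only gate 67.2, 68.1, 137 and 121 CPM, and the gates overlapped. Both were called higher than the mean of the other gates, by 3.20 ± 0.15 and 2.98 ± 0.16 on the log2 scale. The Tnnt2 Shox2 gate, with 23.1, 55.0, 51.0 and 76.3 CPM, overlapped both of them. The Upk3b gate held 2, 16, 2 and 17 UMIs. At 5000 UMIs 20.6% of cells of the Tnnt2 only gate and 1.27% of the Upk3b gate held an Rspo3 UMI (21.3% and 3.24% without thinning).

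The genes whose levels ran most like each member over the 34 sums were listed by Pearson's r of log2(CPM + 1) among 13766 genes. The sums share 4 libraries and their gates, so r is a description. They were E130308A19Rik for Wnt2 (r = 0.94), Npdc1 for Wnt4 (0.95), Myh10 for Wnt5a (0.92), Cyp26b1 for Wnt9b (0.83), Blvra for Wnt11 (0.86), Smarcd3 for Sfrp1 (0.95), Igdcc3 for Sfrp2 (0.94), Gucy1a1 for Sfrp5 (0.92), Cyth2 for Dkk1 (0.94) and Hectd2 for Rspo3 (0.94). Next to these stood Gimap9 (0.94) and Ptprm (0.93) for Wnt4, Hoxa2 (0.91) and Zfp428 (0.89) for Sfrp2, and Vcam1 (0.93) and Fhl2 (0.93) for Rspo3.

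Within a gate, the share of cells with a UMI of a member differed with the presence of another member. The part that free RNA in the droplets had in these shares was not measured. In the Tnnt2 Myl2 gate, an Rspo3 UMI was present in 52.2% of cells with a Wnt2 UMI and in 15.2% of cells without (means of 4 libraries at 5000 UMIs), and the share was higher with Wnt2 in 4 of 4 libraries. Rspo3 was likewise found in 38.2% of cells with and 14.5% of cells without Wnt11. In the Cdh5 gate, Wnt11 was found in 37.1% of cells with Wnt4 and 20.4% of cells without, while Dkk1 was found in 0.945% of cells with Wnt4 and 4.50% of cells without. Only 1, 4, 4 and 4 cells held both Dkk1 and Wnt4. In the Hapln1 gate, Sfrp1 was found in 34.6% of cells with Dkk1 and 15.9% of cells without, and in 8.90% of cells with Wnt4 and 18.4% of cells without. Each of these directions was seen in 4 of 4 libraries of the gate named. Some pairs ran the other way elsewhere. In the Tnnt2 only gate Rspo3 was found in 16.0% of cells with Wnt2 and 22.3% of cells without, and the share was lower with Wnt2 in 4 of 4 libraries, while Rspo3 with Wnt11 kept its direction there (35.6% and 17.9%). In the Stmn4 gate Sfrp1 was found in 23.4% of cells with Dkk1 and 34.9% of cells without, and was higher with Dkk1 in 1 of 4 libraries.

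**Figure D2:**
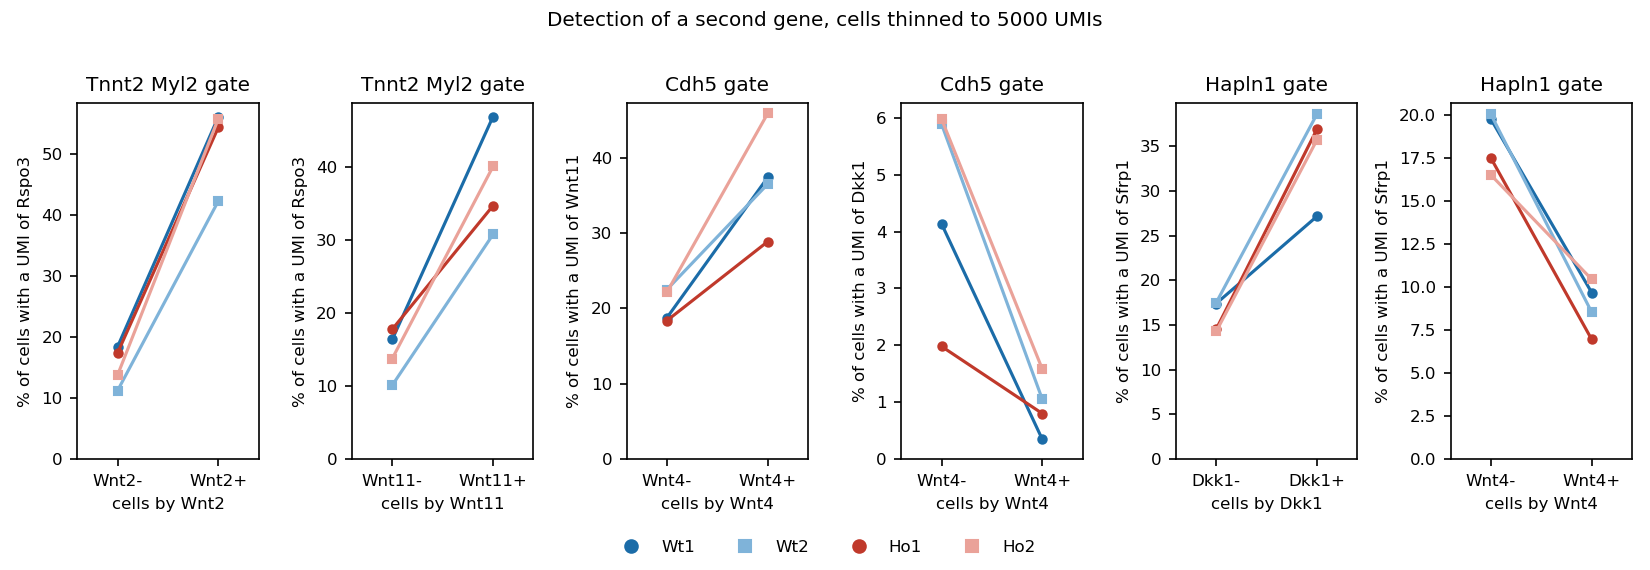
Percent of cells with a UMI of a further gene (y axis of each panel) in cells without (-) and with (+) a UMI of the gene on the x axis, each cell thinned to 5000 UMIs, 1 line for each library. All 4 lines rise for Wnt2 with Rspo3, Wnt11 with Rspo3, Wnt4 with Wnt11 and Dkk1 with Sfrp1, and all 4 fall for Wnt4 with Dkk1 in the Cdh5 gate and Wnt4 with Sfrp1 in the Hapln1 gate.

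The other genes of the pathway were described in the same fit. Of 80 genes in lists of ligands, modulators, ligand release, receptors, cytoplasmic and nuclear parts and targets, 63 were tested. In the Tnnt2 Shox2, Tnnt2 only and Upk3b gates the share of the lists called higher (31.7%, 27.0% and 23.8%) was near or below that of all genes (31.6%, 31.4% and 24.5%), and in the Tnnt2 Myl2 and Cdh5 gates it was lower (23.8% and 25.4% against 34.7% and 35.5%). In the Epcam, Crabp1, Hapln1 and Stmn4 gates it was 46.0%, 42.9%, 39.7% and 31.7%. These shares were not tested. The Epcam gate called 29 higher and 8 lower (27.5% of all genes were higher in this gate and 25.5% lower), led by the ligand Wnt6 (log2 difference 6.96 ± 0.41), the ubiquitin ligase Rnf43 (5.31 ± 0.40) and the Bmp and Wnt antagonist Sostdc1 (5.01 ± 0.41). The Crabp1 gate called 27 higher and 10 lower (29% and 23.9% of all genes), led by Rspo2 (2.98 ± 0.37), Draxin (2.76 ± 0.33) and the Sfrp relative Frzb (2.43 ± 0.19). The Cdh5 gate called 16 higher and 31 lower (35.5% and 31% of all genes), led by the Lrp antagonist Sost (5.59 ± 0.18), the receptor Fzd10 (3.61 ± 0.24) and the R-spondin receptor Lgr5 (2.37 ± 0.28).

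The Upk3b gate called 15 pathway genes higher and 17 lower (24.5% and 22.9% of all genes), led by the R-spondin Rspo1 (5.99 ± 0.18) and the ligands Wnt2b (4.77 ± 0.41) and Wnt6 (3.78 ± 0.72). All 4 other Wnt ligands that were tested were called higher in this gate. The Hapln1 gate called 25 higher and 11 lower (28.9% and 24.4% of all genes), led by Fzd10 (2.99 ± 0.28) and the target Sp5 (2.95 ± 0.40), and 8 of 10 targets were higher there. The Stmn4 gate called 20 higher and 7 lower (21.6% and 22.8% of all genes), led by Lgr5 (3.15 ± 0.43) and Frzb (3.06 ± 0.22). The cardiomyocyte gates were led by Sostdc1 (3.61 ± 0.44), Rspo2 (3.27 ± 0.36) and Fzd7 (2.15 ± 0.12) with Shox2, by Fzd9 (3.14 ± 0.26), Dkk3 (2.64 ± 0.10) and Ror1 (1.85 ± 0.22) with Myl2, and by Dkk3 (2.30 ± 0.10), Fzd9 (1.61 ± 0.35) and Kremen1 (1.17 ± 0.10) in the Tnnt2 only gate. They called 20, 15 and 17 higher and 17, 25 and 17 lower, in that order (31.6%, 34.7% and 31.4% of all genes higher, 27.3%, 33.8% and 29.4% lower).

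Ho was then compared with Wt inside each gate. Sums of 2 Ho and 2 Wt libraries were fitted with edgeR's quasi-likelihood test, with Benjamini-Hochberg adjustment over all genes of the gate, and the Epcam and Crabp1 gates could not be compared because Ho1 held fewer than 20 cells there. In such sums fewer cells of a type and less RNA per cell cannot be told apart. Of 40 pairs of a member and a gate that were tested, 1 was called. Rspo3 was higher in Ho cardiomyocytes of the Tnnt2 only gate, where 18 of 13050 genes, or 0.138%, were called. The share of all genes called was 0.0257% in the Tnnt2 Shox2 gate, 0% in the Tnnt2 Myl2 and Cdh5 gates and 0.0668% in the Upk3b gate. In the gates where members were not tested it was 0.0239% (Hapln1) and 0% (Stmn4), and 5.3% and 5.6% of all genes had an unadjusted p under 0.05.

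Rspo3 in the Tnnt2 only gate was at 67.2 CPM in Wt1 and 68.1 in Wt2, from 547 and 1043 UMIs, and at 137 in Ho1 and 121 in Ho2, from 2338 and 1672 UMIs. The Ho libraries were both higher than either Wt library, as for 13% of all genes in this gate. The log2 difference was 0.97 ± 0.11 (SE, 2 against 2 libraries), with an adjusted p of 0.00811 in edgeR's quasi-likelihood test. Without Wt2 the difference was 0.97 and the adjusted p rose to 0.0877. With the other 13 alternatives that had been planned it stayed called, at log2 differences from 0.83 to 1.19, and over all of them the adjusted p ran from 2.66e-24 to 0.0877.

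The share of cells with an Rspo3 UMI was higher in both Ho libraries. At 5000 UMIs an Rspo3 UMI was found in 74 of 483 cells of the gate in Wt1 (15.3%, 95% exact interval 12.2 to 18.8), 123 of 741 in Wt2 (16.6%), 232 of 856 in Ho1 (27.1%, 24.1 to 30.2) and 156 of 672 in Ho2 (23.2%, 20.1 to 26.6). Of the 765, 1033, 1103 and 894 cells of the gate, the others had fewer than 5000 UMIs and were left out. Without thinning the shares were 13.6%, 19.2%, 27.5% and 25.1%. Cells with a UMI held 5.26 and 5.27 UMIs of Rspo3 on average in Wt1 and Wt2, and 7.72 and 7.46 in Ho1 and Ho2, but cells of this gate were shallower in Wt1 (median 9858 UMIs) than in the other libraries (14512, 15148 and 15650). Scaled to the depth of those cells, Rspo3 was at 387, 306, 483 and 433 CPM, where Ho was still the higher pair but Wt1 and Ho2 lay closer.

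The Tnnt2 only gate is a mixture, and Rspo3 was uneven in it. Bmp2, a factor of atrioventricular canal myocardium that was itself among the 18 genes called (log2 difference 0.84 ± 0.12, adjusted p = 0.0168), was used to split it after its values had been seen. In cells with a Bmp2 UMI, Rspo3 was at 161, 200.1, 377 and 362 CPM. In cells without one it was at 45.5, 32.7, 51.9 and 38.5 CPM, and the genotypes overlapped. Cells with a Bmp2 UMI made up 14.2% and 17.8% of the gate in Wt and 23.5% and 21.5% in Ho. The splits used cells without thinning, and cells of this gate were shallower in Wt1, as given above. The part of depth in these shares was not tested. The Ho libraries were the higher pair in cells with and without Nr2f1, an atrial factor, with 15.0, 19.0, 49.9 and 44.3 CPM with it and 124, 141, 259.9 and 243 CPM without. The same held for cells with a UMI of Isl1, a factor of heart progenitors (159, 146, 361 and 215 CPM), and for those without (37.8, 45.1, 112 and 92.9 CPM).

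**Figure D3:**
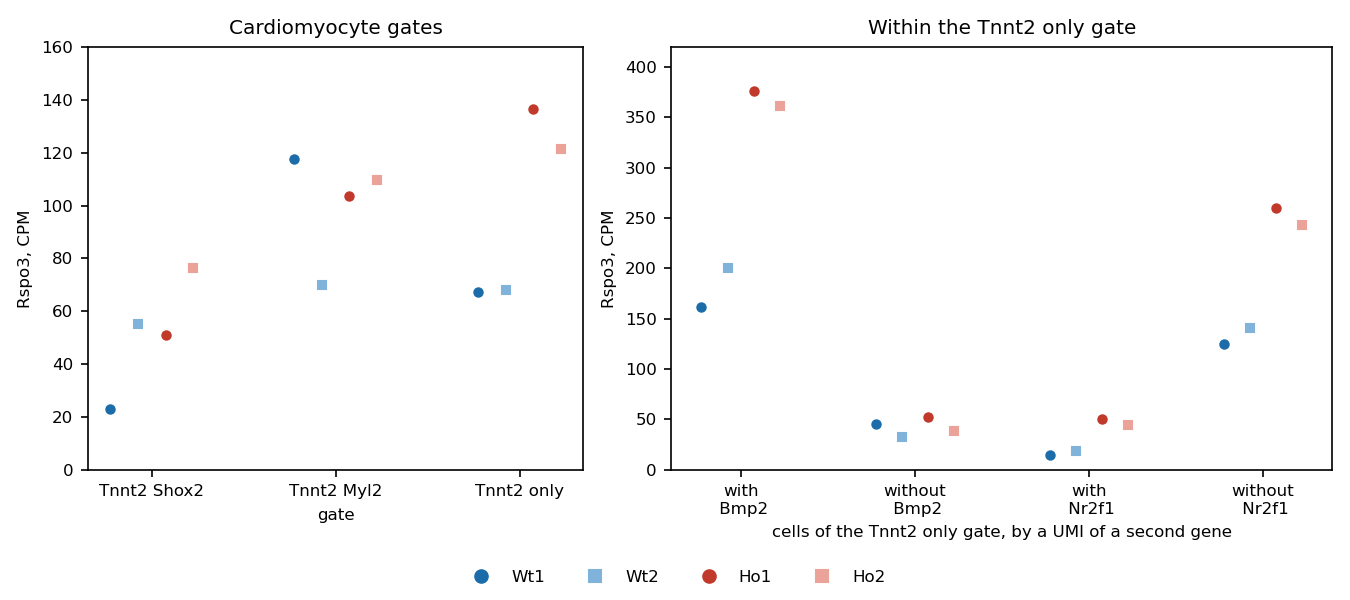
Rspo3 in CPM (linear axes) by library in the 3 cardiomyocyte gates (left) and in parts of the Tnnt2 only gate (right), split by the presence of a UMI of Bmp2 or of Nr2f1. The Ho points (red) lie above the Wt points (blue) in the Tnnt2 only gate, with Bmp2 and in both parts by Nr2f1, while the genotypes overlap without Bmp2.

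Genes of other cell types also differed between genotypes in this gate. In it, 13% of all genes were higher and 22.3% lower in Ho without overlap. Of the 18 genes called in the Tnnt2 only gate, 5 were hemoglobin genes that were higher in Ho, among them Hbb-y (2.33, 3.59, 16.5 and 13.3 CPM). The macrophage gene Tyrobp was lower (2.33, 1.37, 0.0584 and 0 CPM), as were the matrix genes Cthrc1 (62.7, 77.4, 31.9 and 39.7 CPM), a cushion marker, and Eln (11.3, 13.2, 3.795 and 5.87 CPM). The 4 blood markers, of which Hba-x was the most abundant in Ho1, summed to 3.81, 6.73, 44.1 and 26.1 CPM, with Alas2 at no more than 3 UMIs. The 4 macrophage markers summed to 5.40, 2.68, 0.642 and 0.145 CPM. Summed cushion (277, 273, 224 and 251 CPM) and outflow markers (76.2, 67.9, 54.8 and 66.8 CPM) were lower in Ho without overlap. So were endothelial (75.4, 72.4, 68.4 and 68.3 CPM) and neural markers (7.86, 8.17, 6.25 and 6.74 CPM). Endocardial markers (25.5, 31.4, 38.1 and 34.5 CPM) were higher without overlap. The genes Treml1 and Gp9 were also called lower. The summed ventricular markers overlapped between genotypes (2623, 2970, 2965 and 3071 CPM), as did Myl3, the most abundant of them (2620, 2966, 2960 and 3067 CPM). Of the others in that sum, Irx4 (0.491, 1.57, 3.04 and 2.39 CPM) was higher in Ho without overlap. Hey2 (1.96, 1.63, 1.34 and 1.09 CPM) was lower without overlap. Myl2, a gating gene that the sum does not hold, was higher without overlap (83.4, 84.7, 105 and 103 CPM). The part of these genes and sums in the Rspo3 result was not tested. In the cells of the gate without a UMI of any of the 8 blood and macrophage markers, Rspo3 was at 65.2, 70.6, 147 and 118 CPM, 1.95 times higher on average in Ho. Isl1 was at 63.6, 58.1, 17.8 and 58.6 CPM in the gate, lowest in Ho1, and its part in the result was not tested beyond the split by Isl1 above.

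In the Tnnt2 Shox2 gate Rspo3 was at 23.1, 55.0, 51.0 and 76.3 CPM and the genotypes overlapped (log2 difference 0.69 ± 0.29, adjusted p = 0.772 in edgeR). This call depended on the setting, since Rspo3 was called there with the replicate number as a block (0.75, adjusted p = 0.0193 in edgeR) and without Wt2 (1.43, adjusted p = 0.0306 in edgeR), and its values ran from 0.24 to 1.43 when 1 library was left out. In the Tnnt2 Myl2 gate it was 0.17 ± 0.18 (adjusted p = 0.80 in edgeR). The difference between gates was tested on its own in edgeR, with the library as a block. It was added after Rspo3 had been called in the Tnnt2 only gate of the same data, so its unadjusted p is a description. Against the Tnnt2 Myl2 gate the effect in the Tnnt2 only gate was larger by 0.72 ± 0.16, with an unadjusted p of 0.000553 and an adjusted p of 0.505 in edgeR. Against the Cdh5 gate it was larger by 0.96 ± 0.16 (adjusted p = 0.187), and against the Tnnt2 Shox2 and Upk3b gates the adjusted p in edgeR was 0.869 and 1. With the 3 cardiomyocyte gates in 1 sum, Rspo3 was at 79.9, 67.6, 107 and 106 CPM, a log2 difference of 0.53 ± 0.10 that was not called (adjusted p = 0.416 in edgeR).

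**Figure D4:**
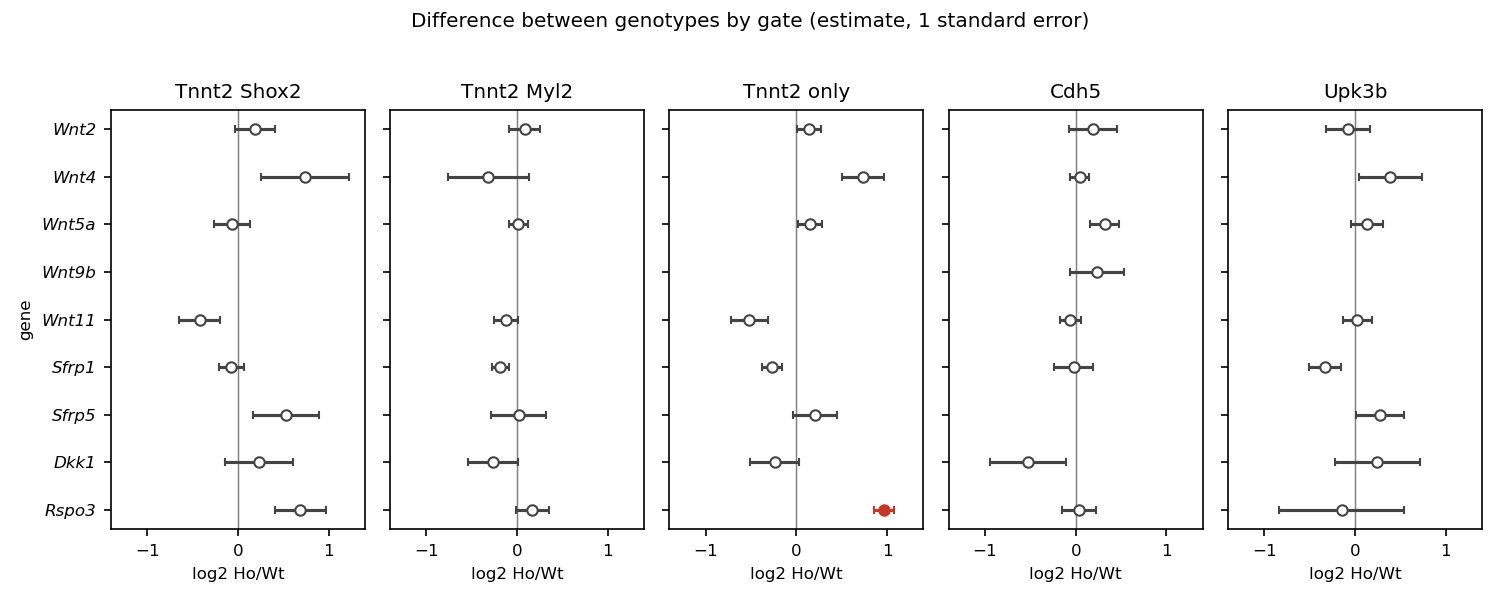
Log2 difference of Ho from Wt with 1 standard error for the genes that were tested, in the 5 gates compared (2 against 2 libraries). The filled red point, Rspo3 in the Tnnt2 only gate, is the one called at an adjusted p under 0.05, and genes with too few UMIs have no point.

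In the Tnnt2 only gate 3 further members had an unadjusted p under 0.05, and their genotypes did not overlap. Wnt4 was at 3.56 and 2.87 CPM in Wt and 4.96 and 5.29 in Ho (log2 difference 0.74 ± 0.23, adjusted p = 0.585 in edgeR), against a mean of 115 CPM in the Cdh5 gate, and its direction turned when cells of more than 1 gate were left out. Wnt11 was at 40.4, 38.7, 18.7 and 35.9 CPM, where Ho1 set the difference (-0.52 ± 0.20, adjusted p = 0.727 in edgeR, and -0.15 without Ho1). It was called without Ho2 (-0.99, adjusted p = 1.989e-11 in edgeR) and with every gene that had a UMI tested (-0.51, adjusted p = 0.0105 in edgeR). Sfrp1 was at 218 and 239 CPM in Wt and 196 and 174 in Ho (-0.27 ± 0.11, adjusted p = 0.764 in edgeR). When 1 library was left out the difference ran from -0.41 without Ho1, where it was called (adjusted p = 0.00733 in edgeR), to -0.14 without Ho2. In this gate 4 of 8 members tested had an unadjusted p under 0.05, against 6.13% of all genes, and 1 of 8 in the Tnnt2 Shox2 gate (6.3% of all genes). None of 8 had one in the Tnnt2 Myl2 (9.23%), Cdh5 (5.15%) and Upk3b (4.83%) gates. Of the 10 members, 2 were higher and 2 lower without overlap in the Tnnt2 only gate (13% and 22.3% of all genes), 0 and 1 in the Tnnt2 Shox2 gate (17.7% and 16.6%), 0 and 2 in the Tnnt2 Myl2 gate (24.6% and 15%), and none in the Cdh5 gate (12.1% and 23.5%) and the Upk3b gate (11.8% and 21.3%).

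Wnt2, Wnt4, Wnt11, Sfrp1 and Sfrp5 were not called between genotypes in the gates where they were highest. In the Tnnt2 Shox2 gate Wnt2 differed by 0.19 ± 0.22 and Sfrp1 by -0.07 ± 0.13 on the log2 scale. When 1 library was left out these ran from -0.36 to 0.58 and from -0.27 to 0.11. In the Cdh5 gate Wnt4 differed by 0.04 ± 0.11 (-0.11 to 0.20 when 1 library was left out) and Wnt9b by 0.24 ± 0.30 (0.071 to 0.43). In the Upk3b gate Wnt11 differed by 0.03 ± 0.16 (-0.14 to 0.27 when 1 library was left out) and Sfrp5 by 0.28 ± 0.27 (0.017 to 0.499). Over the 8 members tested the median log2 difference was 0.21 in the Tnnt2 Shox2 gate, -0.054 with Myl2, 0.15 in the Tnnt2 only gate, 0.039 in the Cdh5 gate and 0.079 in the Upk3b gate, against medians of all genes between -0.0044 and 0.0056.

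In the mesenchymal gates the values are a description. Sfrp2 in the Hapln1 gate was at 2.48 and 1.38 CPM in Wt and 1.45 and 1.08 in Ho, and in the Stmn4 gate at 11.7 and 22.5 in Wt and 6.78 and 13.3 in Ho, so the genotypes overlapped in both gates. In the Crabp1 gate Ho2, at 24.7 CPM, lay between Wt1 at 24.2 and Wt2 at 47.2, and Ho1 had 2 UMIs in 18 cells. When the 3 gates were summed, Sfrp2 was at 17.7, 15.5, 2.11 and 9.94 CPM, so that the Ho libraries were the lower pair. This order did not hold over all cells, where Sfrp2 was at 12.7, 6.06, 1.00 and 7.37 CPM and Ho2 lay above Wt2. Cells of no gate, which the sum leaves out, held 421 of the 725 Sfrp2 UMIs of Ho2. The Crabp1 gate held 70.5%, 28.1%, 1.41% and 35.8% of the cells of these gates and 91.8%, 71.6%, 5.56% and 81.6% of their Sfrp2 UMIs.

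**Figure D5:**
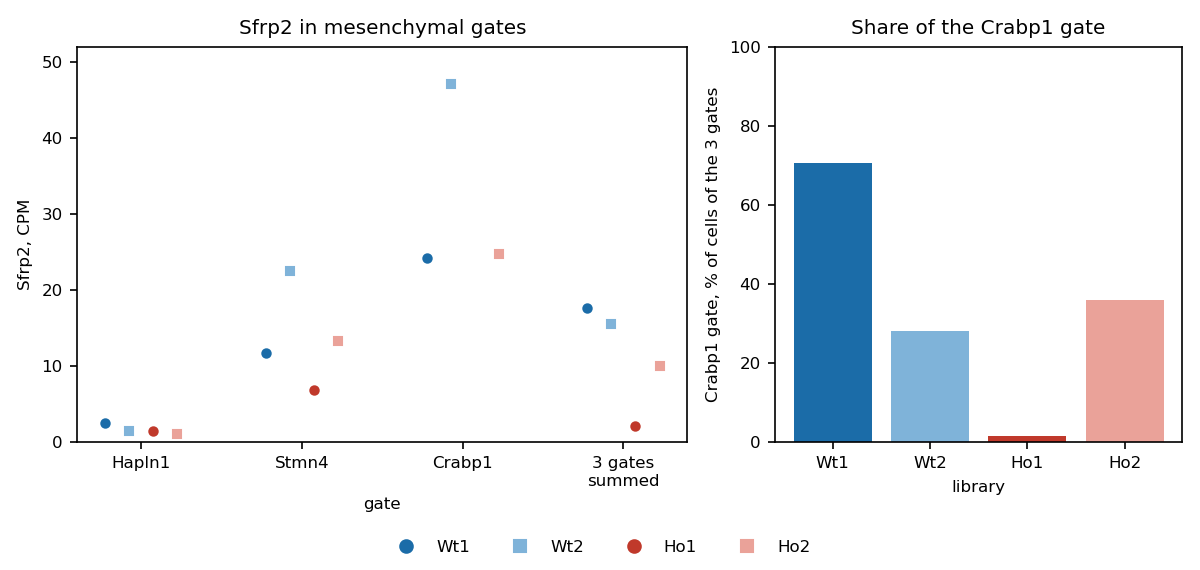
Sfrp2 in CPM by library in 3 mesenchymal gates and in their sum (left, linear axis), and the percent of the cells of these gates that fell in the Crabp1 gate (right, bars, 1 for each library). The libraries of both genotypes overlap in the Hapln1 and Stmn4 gates, both Ho libraries are lower in the sum, and Ho1 has almost no cells of the Crabp1 gate (no point is shown for its 18 cells).

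Other members in these gates were also given without a test. Sfrp1 in the Hapln1 gate was at 54.9 and 61.6 CPM in Wt and 51.0 and 41.9 in Ho, and was the only member whose genotypes did not overlap there (14.9% of all genes were higher and 19.3% lower in this way). In the Stmn4 gate Dkk1 was at 122 and 132 CPM in Wt and 207 and 133 in Ho, and Wnt4 at 24.2 and 20.1 in Wt and 30.0 and 41.2 in Ho. Both were higher in Ho without overlap, as were 12.6% of all genes. Sfrp1 (83.5, 82.9, 80.3 and 74.8 CPM) was lower without overlap, as were 22.4% of all genes. Wnt2, at 2, 3, 1 and 0 UMIs, was too sparse there for its order to be read. Wnt5a in that gate overlapped, at 82.0 and 76.7 CPM in Wt and 93.8 and 81.8 in Ho.

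The rest of the pathway was not called between genotypes. Of the 80 listed genes, 50, 51, 55, 55 and 45 were tested in the Tnnt2 Shox2, Tnnt2 Myl2, Tnnt2 only, Cdh5 and Upk3b gates, and 0 were called in any of them with edgeR, while 3, 8, 3, 3 and 0 had an unadjusted p under 0.05. In the Tnnt2 Myl2 gate all 8 were higher in Ho, with a median of 0.12 over the list against 0.0056 over all genes, and 9.23% of all genes had such a p there, of which 55.5% were higher in Ho. They were the targets Axin2 (0.39 ± 0.17) and Lef1 (0.27 ± 0.11), the receptors Ror2 (0.37 ± 0.12) and Fzd4 (0.43 ± 0.17), Ctnnb1, which encodes beta-catenin (0.19 ± 0.08), and its partners Tcf7l2, Bcl9 and Bcl9l (0.31 ± 0.14, 0.25 ± 0.11 and 0.34 ± 0.13). In the Tnnt2 only gate the 3 genes were Axin2 (0.59 ± 0.19), Ror2 (0.37 ± 0.12) and the antagonist Dkk2 (-1.60 ± 0.61). They were 5.5% of the genes tested, below the 6.13% of all genes with such a p, and the median over the 9 targets tested was -0.18. In the Tnnt2 Shox2 gate the 3 genes were the receptor Fzd1 (0.55 ± 0.23), Sostdc1 (-1.44 ± 0.39) and the ubiquitin ligase subunit Btrc (-0.43 ± 0.16), so that 1 was higher and 2 were lower. In the Cdh5 gate all 3 were higher in Ho. They were 5.5% of the genes tested there, against 5.15% of all genes, of which 60.3% were higher in Ho.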

How the data were processed

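The authors aligned reads to mm10 (GRCm38) with Cell Ranger 6.1.1 and deposited raw UMI counts for barcodes called as cells. Seurat 4.1.0 is also named in the submitters' processing notes, and its output was not used here. The members, gene lists and gates were chosen with earlier results of these data known. Barcodes were kept with 500 to 50000 UMIs, 500 to 6000 genes and no more than 20% of counts from mitochondrial genes, and the cells with the highest Scrublet scores (scanpy 1.11.5) were removed at 0.8% per 1000 cells. Tnnt2, Myl2, Hapln1 and Crabp1 were gated at Otsu limits of log2(UMIs per 10000 + 1), at 5.62, 7.43, 1.73 and 1.68 UMIs per 10000 (Myl2 within Tnnt2 cells), and Shox2, Cdh5, Epcam, Upk3b and Stmn4 at 2 UMIs. Cells took the first gate met in the order Tnnt2, Cdh5, Epcam, Upk3b, Hapln1, Stmn4, Crabp1, and cells high in Tnnt2 with 2 Cdh5 UMIs were left out.

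UMI counts of a gate were summed per library (at least 20 cells) and tested in edgeR 4.0.16 (R 4.3.3) with TMM, filterByExpr and an adjusted p under 0.05. CPM use all UMIs of a sum. Intervals are exact (Clopper-Pearson) and cover counting error only. Named genes were the 10 members, list genes called between genotypes (there were none), the 3 list genes highest in each gate, the 3 genes most correlated with each member, and markers. Others, such as Bmp2, the hemoglobin genes and the list genes given for an unadjusted p under 0.05, were named after their values were seen. Positions are from GENCODE M21. The scripts were tested on simulated data. Alternatives were DESeq2 1.42.0, RLE, other filters, a block for the replicate number, each library left out in turn, other gate limits, doublets kept and 10% mitochondrial counts. The sum of 3 cardiomyocyte gates, the difference between gates and the splits of the Tnnt2 only gate were added after seeing the data.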

Additional observations from a re-analysis of the deposited data

Results flagged for a closer look

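The values of Dkk1 had opposite signs in a pair of gates, of which the Tnnt2 Myl2 value was not called and the other was not tested. In the Stmn4 gate both Ho values were above both Wt values, with a log2 difference of 0.48, although Ho2 and Wt2 were nearly level (132.8 and 132.2 CPM), and in the Tnnt2 Myl2 gate both were below (1.78 and 1.55 CPM against 2.11 and 1.91), with a log2 difference of -0.27. The difference between these gates was not tested, and the value in the Stmn4 gate is a description. Without Ho1 the difference in the Stmn4 gate was 0.10.

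Cells of no gate, which entered no comparison, held Wnt2 at 101 CPM in Ho2, against 6.84 in Wt1, 16.4 in Wt2 and 14.8 in Ho1. These were 1303 UMIs in 1073 cells of Ho2.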

How the results depend on the processing

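Counts of genes called between Ho and Wt moved with most settings. They are given here in the order Tnnt2 Shox2, Tnnt2 Myl2, Tnnt2 only, Cdh5, Upk3b, Hapln1 and Stmn4, where edgeR called 3, 0, 18, 0, 7, 3 and 0 genes at an adjusted p under 0.05 (735, 1226, 800, 691, 506, 666 and 538 at an unadjusted p under 0.05). With every gene with a UMI tested, 138, 212, 173, 211, 116, 146 and 65 genes were called. With the replicate block, 62, 129, 41, 1, 33 and 8 were called in all but the Stmn4 gate. DESeq2 called 20 in the Tnnt2 Myl2, 24 in the Cdh5 and 12 in the Hapln1 gate. With gate markers at 1 UMI, 1 was called in the Tnnt2 Shox2, 13 in the Tnnt2 Myl2 and 3 in the Upk3b gate. With 3 UMIs, 1 was called in the Tnnt2 Shox2 and 6 in the Hapln1 gate. With cells of more than 1 gate left out, 1, 5, 3 and 2 were called in the Tnnt2 Shox2, Tnnt2 Myl2, Upk3b and Stmn4 gates. At least 10 UMIs in every library gave 10 in the Tnnt2 only and 3 in the Upk3b gate, doublets kept gave 10, 3 and 1 in the Tnnt2 only, Upk3b and Hapln1 gates, and at most 10% mitochondrial counts gave 1 in the Tnnt2 Shox2 gate. Leaving out 1 library gave 4 to 24 in the Tnnt2 Shox2 gate, 30 to 81 in the Tnnt2 Myl2, 5 to 460 in the Tnnt2 only (15 without Wt1, 5 without Wt2, 202 without Ho1, 460 without Ho2), 0 to 152 in the Cdh5, 9 to 78 in the Upk3b, 8 to 66 in the Hapln1 and 13 to 190 in the Stmn4 gate. The causes were not tested.

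Member and gate pairs called fell from 36 higher and 37 lower to 12 and 10 when at least 10 UMIs were required in every sum, where 27 of 90 pairs could be tested, and were 33 to 37 higher and 31 to 36 lower when 1 library was left out. The higher level of Rspo3 in the Tnnt2 only gate was 0.53 (log2, not called) with the 3 Tnnt2 gates in 1 sum, and it ranged from 0.83 (without Ho1) to 1.095 (without Ho2) when 1 library was left out. Wnt4 in the Tnnt2 only gate turned to -0.25 with cells of more than 1 gate left out. When 1 library was left out, directions that were not called turned for Rspo3 with Myl2 (-0.19 to 0.59), Wnt2 with Shox2 (-0.36 to 0.58), Wnt4 in the Cdh5 gate (-0.11 to 0.20), Wnt11 in the Upk3b gate (-0.14 to 0.27) and Sfrp1 with Shox2 (-0.27 to 0.11). Replicate numbers did not pair the libraries (correlations of deviations between -0.0916 and 0.0921), and under the replicate block Rspo3 was called in the Tnnt2 only gate and also in the Tnnt2 Shox2 gate (0.75, adjusted p = 0.0193 in edgeR), where it was called without Wt2 (1.43, adjusted p = 0.0306 in edgeR) and with every gene that had a UMI tested (0.71, adjusted p = 0.000376 in edgeR) as well. A lone library of a genotype was assumed to vary like the pair of the other genotype.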

Other observations

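Cells high in Tnnt2 that also held 2 or more UMIs of Cdh5 were left out of every gate. There were 20, 28, 101 and 7 of them (Wt1, Wt2, Ho1, Ho2). Wnt4 was at 225, 272, 74.0 and 344 CPM in these cells, from 66, 111, 124 and 30 UMIs, and Wnt9b at 10.2, 22.0, 8.35 and 11.5 CPM, from 3, 9, 14 and 1 UMIs. The Cdh5 gate was lower for both genes in every library but Ho1, where Wnt4 was at 111 CPM in the Cdh5 gate. For Ho2 this rests on 7 cells, fewer than the 20 required of a sum elsewhere, and on 1 Wnt9b UMI.

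In cells of no gate Sfrp2 was at 25.1, 28.0 and 32.6 CPM in Wt1, Wt2 and Ho2 and at 4.93 in Ho1, and Dkk1 at 47.0, 99.3, 40.9 and 34.2 CPM in Wt1, Wt2, Ho1 and Ho2.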
